A study of Mus musculus with 16 samples.

Results

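Sterol and fatty acid synthesis in peritoneal macrophages was followed through 33 genes, chosen by name as the regulators and enzymes of both pathways, and all 33 were measured among the 17466 features of the array. The genes comprise 5 regulators, 18 genes of the sterol branch and 10 genes of the fatty acid branch. RNA came from adherent peritoneal macrophages of male mice of the strain BALB/cByJ-Lpin1fld/J, on 16 single-colour arrays, 4 in each of 4 groups. The groups were fld cells given LPS, fld cells left untreated, heterozygote control cells given LPS and heterozygote control cells left untreated. The fld mice carry the fatty liver dystrophy mutation of Lpin1, the gene of lipin-1, a phosphatidate phosphatase, and the controls carry that mutation on a single allele, so no group is wild type. LPS, a bacterial ligand of the receptor TLR4, was given at 100 ng/ml for 5 h in medium without serum, and the untreated cells were also without serum. The question was how loss of lipin-1 bears on the transcriptional response of macrophages to this receptor. The mutation is inherited and so not limited to macrophages. The labels do not tie arrays to mice, so p-values measure only the spread between these samples, and whether a treated and an untreated array share a mouse is not stated. The arrays may therefore come from fewer mice than there are arrays, and the main fit treated them as independent.

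Cholesterol and fatty acids are both built from cytosolic acetyl-CoA. Membrane-bound transcription factors of the SREBP family (Srebf1 and Srebf2) are carried by Scap to the Golgi for activation when sterols are low, and Insig1 and Insig2 hold Scap back in the endoplasmic reticulum when sterols are plentiful. Mature SREBPs induce most enzymes of both pathways. In macrophages, SREBP activity and the sterol-sensing receptor LXR are both known to be altered during inflammatory stimulation, and LXR also induces Srebf1 and several fatty acid genes.

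Levels are log2 processed intensities relative to the 75th percentile of each array, so that 0 is the brightness of the 75th percentile, and a change is a difference of such log2 levels. Levels of different genes rest on different probes and are not compared with each other. The 75th percentile was 189 to 411 intensity units on arrays labelled fld with LPS, 413 to 581 on untreated arrays labelled fld, 335 to 627 on control arrays with LPS and 472 to 586 on untreated control arrays. Every main probe of the 33 genes was well above background on all 16 arrays and none was saturated, and 7 of the 528 values carried an outlier flag and were left out. Of 8 macrophage markers all were well above background on every array, as were 4 of 4 B-cell and 6 of 6 mast-cell markers, and 3 of 4 T-cell markers on arrays labelled fld with LPS and 4 of 4 in the other groups. Of 6 mesothelial and fibroblast markers 3 were well above background on every array of each LPS group and 4 on every array of each untreated group. Of 5 adipocyte markers 2 were well above background on every array, while Adipoq and Lep were on none. The mean of the 3 dimmer Lpin1 probes was -3.03 with LPS and -1.62 untreated on the arrays labelled fld replicate 4, against -6.72 to -5.46 on the other arrays labelled fld and -3.53 to -2.86 on control arrays. The brightest Lpin1 probe was -0.33 and -0.63 on the 2 replicate 4 arrays, above all others. It overlapped between the other arrays labelled fld (-2.15 to -1.4) and control arrays (-1.81 to -1.3). The arrays labelled fld replicate 4 go against their label in the mean of the 3 probes. The group is therefore called labelled fld, and the calls that rest on these 2 arrays are also given without both. Each group lay on 1 slide of its own, and in every comparison the slide and the group cannot be told apart.

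**Figure D1:**
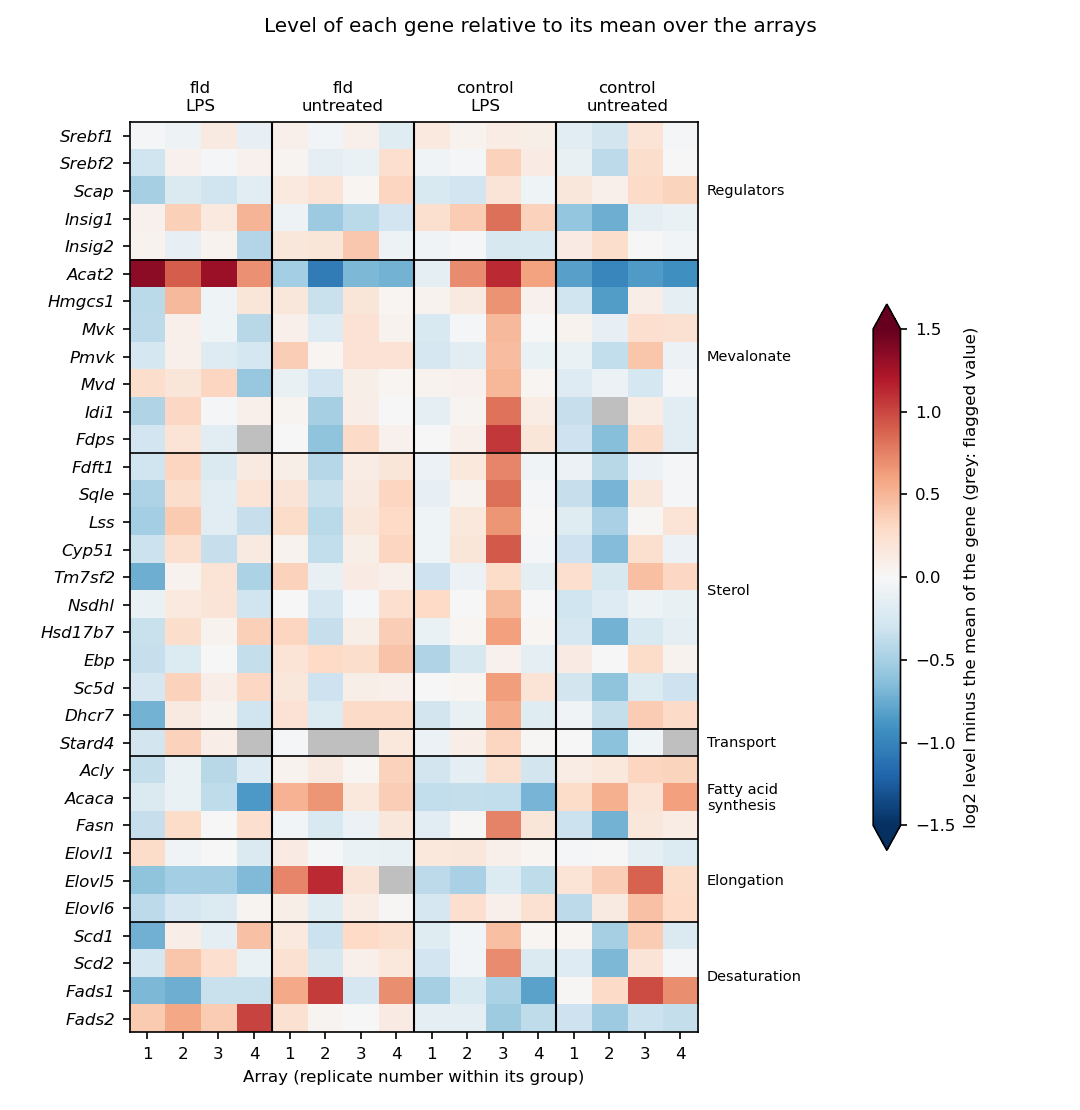
Each row is 1 of the 33 genes and each column 1 of the 16 arrays, grouped as fld with LPS, fld untreated, control with LPS and control untreated; colour gives the log2 level minus the mean of that gene over all arrays, and grey marks a flagged value. Acat2 is higher on the LPS arrays than on the untreated arrays of each genotype, Elovl5, Fads1 and Acaca are lower, and control LPS replicate 3 is high across the sterol genes.

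With LPS in control macrophages, 3 genes rose and 3 fell, and most of the module did not pass the test. Acat2, Insig1 and Sc5d rose, by 1.46, 0.84 and 0.56 on the log2 scale. Fads1, Acaca and Elovl5 fell by 1.0, 0.85 and 0.80. The 6 genes are 18.2% of the 33, against 29.4% of all 17466 features called in this comparison, 14.5% higher and 14.9% lower (limma, Benjamini-Hochberg adjusted p under 0.05), so the share of called genes in the module was no larger than that of the array. By role, 1 of 5 regulators, 1 of 7 mevalonate enzymes and 1 of 10 later sterol enzymes rose, and 1 of 3 genes of fatty acid synthesis fell, while the other calls were an elongase and a desaturase. The LPS and untreated arrays did not overlap for 10 of the 33 genes, the 6 called and Mvd, Nsdhl, Hsd17b7 and Elovl1, against 33.2% of all features. The median change was 0.19 over the 33 genes, against 0.03 over all features, and 0.09 without control untreated replicate 2. With quantile normalization the split was 3 higher and 6 lower, and the share of all features called under that setting is not given.

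Acat2 encodes the cytosolic acetyl-CoA acetyltransferase that joins acetyl-CoA units at the entry to the mevalonate pathway. Its level was -0.29, 0.55, 0.96 and 0.45 on control arrays with LPS, against -0.97, -1.13, -1.01 and -1.08 on untreated control arrays. All 4 LPS arrays lay above all 4 untreated arrays, with replicate 1 the lowest of the LPS arrays. The change was 1.46 (SE 0.22, 2.76-fold, limma adjusted p = 0.00015). A single probe measured it, and RefSeq has a related gene, Acat3, on the same chromosome, 17. Cross-hybridisation was not tested.

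Insig1 encodes the endoplasmic reticulum protein that retains Scap and is itself an SREBP target. Its level was 0.25, 0.39, 0.84 and 0.35 with LPS, against -0.57, -0.72, -0.14 and -0.09 in untreated control cells. The groups did not overlap, and the change was 0.84 (SE 0.17, 1.79-fold, limma adjusted p = 0.00177). A dimmer Insig1 probe gave 0.68 (SE 0.19, adjusted p = 0.0159). Insig2, its paralogue, did not pass the test (-0.22, SE 0.13), nor did Srebf1 (0.16, SE 0.11), Srebf2 (0.16, SE 0.15) or Scap (-0.32, SE 0.12, adjusted p = 0.0593). A dimmer probe of Srebf2 passed, at 0.46 (adjusted p = 0.0106), and Scap passed at -0.41 without control LPS replicate 3 (adjusted p = 0.0145).

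Of the other mevalonate enzymes none passed in control cells. Hmgcs1, which condenses acetyl-CoA units into HMG-CoA, had 0.52 (SE 0.22, adjusted p = 0.0927), Mvd, the mevalonate diphosphate decarboxylase, 0.31 (SE 0.18), Idi1, the isopentenyl diphosphate isomerase, 0.34 (SE 0.23), and Fdps, the farnesyl diphosphate synthase, 0.53 (SE 0.26). The kinases Mvk and Pmvk were at -0.05 (SE 0.16) and 0.02 (SE 0.18). The Mvd groups did not overlap although the test was not passed: Mvd was 2.07 to 2.54 with LPS and 1.77 to 2.01 untreated. The probes of Idi1 and Hmgcs1 are placed by the array files on chromosome 2 and on an unplaced sequence, where RefSeq has both genes on chromosome 13.

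Sc5d, the lathosterol desaturase near the end of the sterol route, was the sole enzyme after farnesyl diphosphate to pass. Its level was 2.56, 2.60, 3.20 and 2.77 with LPS, against 2.29, 1.97, 2.36 and 2.26 in untreated control cells. The groups did not overlap, and the change was 0.56 (SE 0.17, 1.47-fold, limma adjusted p = 0.0204). The call was lost without control LPS replicate 3 (0.42, adjusted p = 0.0628), without control untreated replicate 2 (0.48, 0.0667) and with the mean of its probes (0.39, 0.0621).

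The other later sterol enzymes and Stard4 were mostly above 0 without passing. Fdft1, which makes squalene, had 0.34 (SE 0.20), Sqle, the squalene epoxidase, 0.41 (SE 0.24), Lss, the lanosterol synthase, 0.30 (SE 0.23), and Cyp51, the lanosterol demethylase, 0.46 (SE 0.24). Hsd17b7, a sterol ketoreductase, had 0.47 (SE 0.20) and Nsdhl, a sterol C4 decarboxylase, 0.36 (SE 0.14, adjusted p = 0.0712), and in both the LPS and untreated groups did not overlap. Ebp, the sterol isomerase, was at -0.30 (SE 0.12, adjusted p = 0.0696), Tm7sf2, a sterol reductase, at -0.26 (SE 0.21), Dhcr7, the 7-dehydrocholesterol reductase, at -0.07 (SE 0.23), and Stard4, a cytosolic cholesterol carrier, at 0.31 (SE 0.19). Of the 18 sterol genes 14 lay above 0, with a median of 0.34, against 0.03 over all features, of which 46.6% lay below 0. Without control LPS replicate 3 the median was 0.20 and 13 lay above 0. Nsdhl passed without the arrays labelled fld replicate 4, which share in the fit's estimate of spread (adjusted p = 0.0379).

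The 3 genes that fell in control cells all belong to the fatty acid branch. Elovl5, the elongase of polyunsaturated fatty acids, was 2.10, 2.01, 2.29 and 2.11 with LPS, against 2.70, 2.86, 3.38 and 2.77 untreated. Its groups did not overlap, and it fell by 0.80 (SE 0.18, 1.74-fold, limma adjusted p = 0.00429). A dimmer probe was at -0.93 (adjusted p = 0.00931).

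Fads1, the delta-5 desaturase that acts beside Elovl5 in making arachidonic acid, was -1.54, -1.27, -1.52 and -1.84 with LPS, against -1.02, -0.75, -0.06 and -0.34 untreated. The groups did not overlap, the untreated arrays spreading more widely than the LPS arrays. Fads1 fell by 1.0 (SE 0.25, 2.0-fold, adjusted p = 0.00755).

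Acaca, the acetyl-CoA carboxylase that commits acetyl-CoA to fatty acids, was -0.43, -0.41, -0.42 and -0.75 with LPS, against 0.22, 0.48, 0.15 and 0.56 untreated. It fell by 0.85 (SE 0.17, 1.81-fold, adjusted p = 0.00128) with no overlap, and its 3 dimmer probes were also below 0, at -0.31, -0.89 and -0.95. The next enzyme, the fatty acid synthase Fasn, was at 0.38 (SE 0.22) and Acly, which releases acetyl-CoA from citrate, at -0.34 (SE 0.13, adjusted p = 0.0515). Acly passed at -0.46 without control LPS replicate 3 (adjusted p = 0.00724). Elovl1 (0.19, SE 0.11), Elovl6 (-0.05, SE 0.17), the delta-9 desaturases Scd1 (0.15, SE 0.24) and Scd2 (0.22, SE 0.23), and the delta-6 desaturase Fads2 (0.08, SE 0.14) did not pass.

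**Figure D2:**
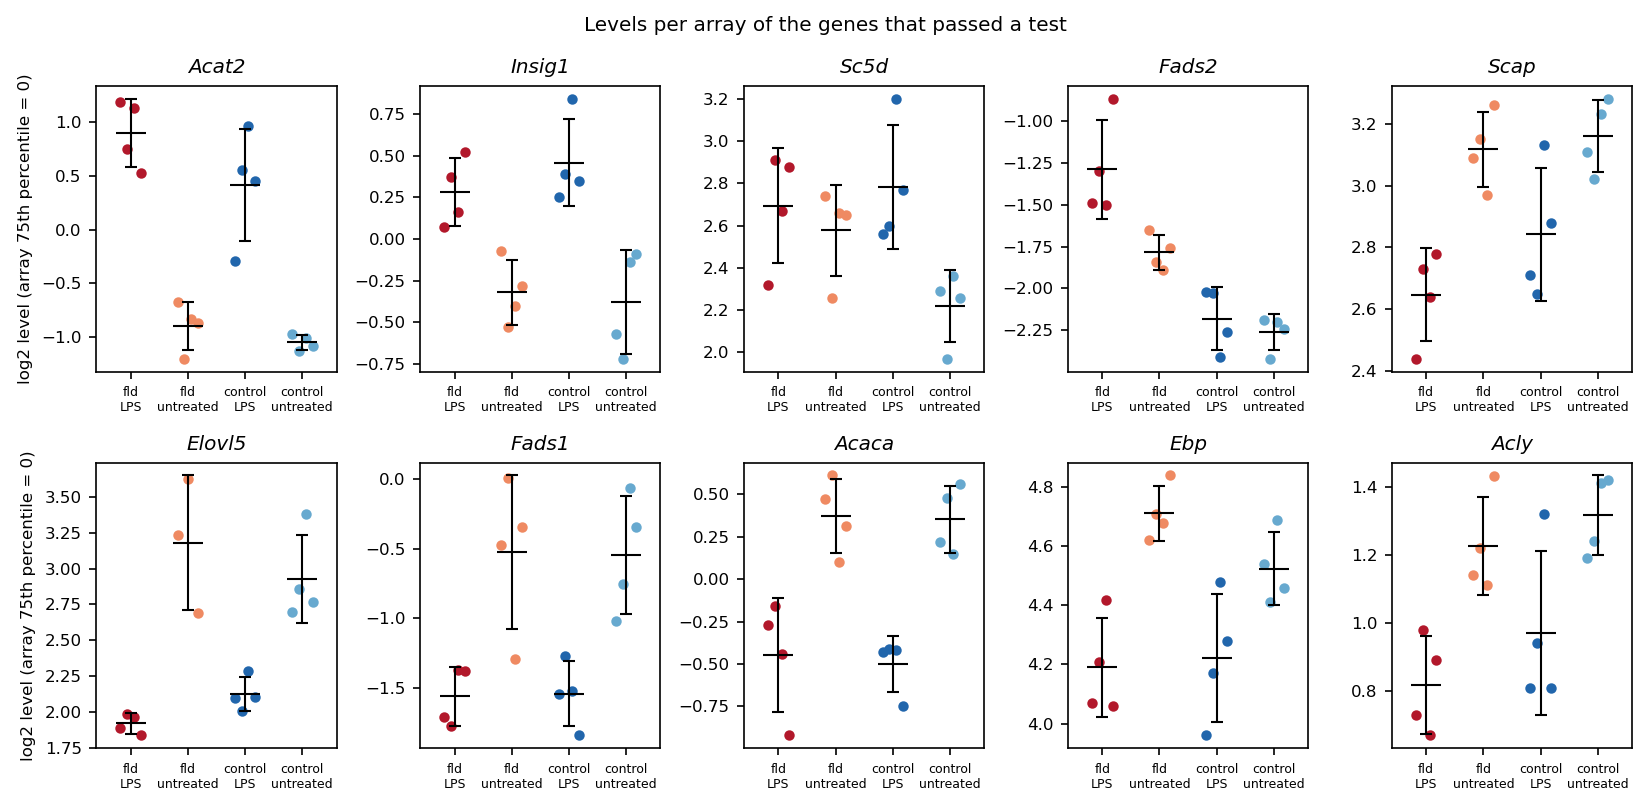
Points are log2 levels per array of the 10 genes that passed a test in at least 1 comparison, in the order fld with LPS, fld untreated, control with LPS and control untreated, and bars are the mean and SD; each panel has its own axis. Acat2 and Insig1 sit higher with LPS, Elovl5, Fads1 and Acaca lower, and Fads2 is highest on the arrays labelled fld with LPS.

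Promoter windows of called genes are shown because these genes moved with LPS although their enzymes sit in different branches. RefSeq (GRCm38.p6) gave windows for 26 of the 33 genes, at 35 starts, and the 250 bases before the start are shown for the 3 genes that rose in control cells and for Elovl5, which fell, written 5′ to 3′ along the gene. Capitals mark the CCAAT box (CCAAT) and the GC box (GGGCGG), searched on both strands.
Acat2, chr17:12960726-12960975, minus strand: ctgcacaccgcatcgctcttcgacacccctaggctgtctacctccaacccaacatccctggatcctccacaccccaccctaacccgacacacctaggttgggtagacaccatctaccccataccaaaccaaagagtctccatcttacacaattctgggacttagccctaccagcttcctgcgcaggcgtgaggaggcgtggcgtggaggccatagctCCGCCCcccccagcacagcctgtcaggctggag
Insig1, chr5:28071162-28071411, plus strand: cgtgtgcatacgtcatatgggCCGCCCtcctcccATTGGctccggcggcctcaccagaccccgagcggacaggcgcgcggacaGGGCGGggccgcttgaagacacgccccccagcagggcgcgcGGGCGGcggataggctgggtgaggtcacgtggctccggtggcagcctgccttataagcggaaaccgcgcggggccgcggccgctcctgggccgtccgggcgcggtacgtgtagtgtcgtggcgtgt
Sc5d, chr9:42264301-42264550, minus strand: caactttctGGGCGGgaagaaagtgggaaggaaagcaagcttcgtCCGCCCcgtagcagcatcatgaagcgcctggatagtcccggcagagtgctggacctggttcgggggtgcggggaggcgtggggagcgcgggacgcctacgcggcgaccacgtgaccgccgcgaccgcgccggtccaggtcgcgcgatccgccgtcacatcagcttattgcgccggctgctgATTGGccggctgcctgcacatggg
Elovl5, chr9:77917115-77917364, plus strand: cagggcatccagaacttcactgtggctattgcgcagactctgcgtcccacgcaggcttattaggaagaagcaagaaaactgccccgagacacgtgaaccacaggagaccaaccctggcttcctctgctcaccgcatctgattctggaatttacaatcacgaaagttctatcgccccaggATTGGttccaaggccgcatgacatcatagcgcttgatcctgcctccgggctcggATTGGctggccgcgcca
The CCAAT box was present at 21 of the 35 starts, 60.0%, against 33.8% of all 32851 starts in the table, and the GC box at 25 of 35, 71.4%, against 32.7%. The classic sterol regulatory element, TCACNCCAC, was found at 1 of the 35 starts, that of Hmgcs1, against 1.05% of all starts. The E-box CACGTG, which SREBPs can also bind, was at 6 of 35 starts, 17.1%, against 6.02% of all, and Insig1, Sc5d and Elovl5 are among the 6. The Acat2 window held 1 GC box and no CCAAT box, the Insig1 window 1 CCAAT box and 3 GC boxes, the Sc5d window 1 and 2, and the Elovl5 window 2 CCAAT boxes and no GC box. The window of Acaca, which also fell and is not printed, held none of the motifs searched. Fads1, which fell as well, had no window. In the windows printed no motif overlapped another. A match is a string of letters in this window, not a binding site.

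On arrays labelled fld, 3 of the 33 genes rose with LPS and 6 fell. Acat2, Insig1 and Fads2 rose by 1.79, 0.60 and 0.50 on the log2 scale. Elovl5, Fads1, Acaca, Ebp, Scap and Acly fell by 1.26, 1.03, 0.82, 0.52, 0.47 and 0.41. The 9 genes are 27.3% of the module, against 39.6% of all features called in this comparison (21.6% higher), again a share below that of the array. The groups did not overlap for the same 9 genes, against 37.7% of all features. Without both arrays of replicate 4, 2 rose and 5 fell. The median change was -0.06 over the 33 genes, against 0.06 over all features, and -0.03 without both arrays of replicate 4. Its sign rested on single arrays: it was -0.20 with 26 genes below 0 without fld untreated replicate 2, and 0.02 with 16 below 0 without fld LPS replicate 1. By brightness, the median of all features was 0.42 in the dimmest quartile, then 0.07, -0.04 and -0.01 in the brightest. Of the 33 genes, 0, 5, 10 and 18 lie in these quartiles. On the authors' deposited table, in which each array is divided by its median, the split was 1 higher and 8 lower, and the median of all features was -0.18.

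Acat2 was 1.19, 0.75, 1.13 and 0.53 on arrays labelled fld with LPS, against -0.67, -1.20, -0.83 and -0.87 on untreated arrays labelled fld. The change of 1.79 (SE 0.22, 3.46-fold, limma adjusted p = 2.36e-05) was the largest of the module in either direction. Insig1 was 0.07, 0.37, 0.16 and 0.52 with LPS, against -0.07, -0.53, -0.40 and -0.28 untreated. It rose by 0.60 (SE 0.17, 1.51-fold, adjusted p = 0.0130), and the call was lost without the arrays labelled fld replicate 4 (0.53, adjusted p = 0.06) and on the deposited table (0.35, 0.13).

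Elovl5 was 1.89, 1.99, 1.97 and 1.84 with LPS, against 3.23, 3.62 and 2.69 on the 3 untreated arrays labelled fld that had a value. It fell by 1.26 (SE 0.20, 2.39-fold, limma adjusted p = 0.000261), and a dimmer probe with all 4 untreated arrays was at -1.5 (adjusted p = 0.000299). Fads1 was -1.71, -1.77, -1.37 and -1.38 with LPS, against -0.47, 0.01, -1.29 and -0.34 untreated. It fell by 1.03 (SE 0.25, adjusted p = 0.0052), with untreated replicate 3 close to the LPS arrays.

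Acaca was -0.27, -0.16, -0.44 and -0.92 with LPS, against 0.47, 0.61, 0.10 and 0.31 untreated, and fell by 0.82 (SE 0.17, limma adjusted p = 0.00147). Its 3 dimmer probes were at 0.31, 0.10 and -0.59 and did not pass, and the mean of its probes was at -0.25 (adjusted p = 0.237). Acly was 0.73, 0.98, 0.67 and 0.89 with LPS, against 1.14, 1.22, 1.11 and 1.43 untreated, and fell by 0.41 (SE 0.13, adjusted p = 0.0185). The Acly call was lost without fld untreated replicate 4 (-0.34, 0.0582) and without both arrays labelled fld replicate 4 (-0.37, 0.0671).

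Ebp and Scap complete the genes that fell. Ebp was 4.07, 4.21, 4.42 and 4.06 with LPS, against 4.62, 4.71, 4.68 and 4.84 untreated (-0.52, SE 0.12, limma adjusted p = 0.00357). Scap was 2.44, 2.73, 2.64 and 2.78 with LPS, against 3.09, 3.15, 2.97 and 3.26 untreated (-0.47, SE 0.12, adjusted p = 0.00668). Neither pair of groups overlapped. Fads2, the delta-6 desaturase that opens the route from linoleic acid to arachidonic acid, moved the other way from Fads1 and Elovl5. It was -1.49, -1.30, -1.5 and -0.87 with LPS, against -1.65, -1.84, -1.89 and -1.76 untreated (0.50, SE 0.14, adjusted p = 0.0110), and the call was lost on the deposited table (0.25, 0.0743).

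Without both arrays labelled fld replicate 4, 7 of the 9 genes kept their call, with smaller changes in some. Acat2 was then at 1.92 (limma adjusted p = 0.00013), Elovl5 at -1.23 (0.00104), Acaca at -0.69 (0.00635) and Fads1 at -1.03 (0.0213). Scap was at -0.47 (0.0199), Ebp at -0.43 (0.0293) and Fads2 at 0.37 (0.0442).

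The 24 other genes did not pass on arrays labelled fld. In the mevalonate steps Hmgcs1 was at 0.05, Mvd at 0.13, Idi1 at 0.07, Fdps at -0.02, Mvk at -0.23 and Pmvk at -0.37. In the later sterol steps Sc5d was at 0.12, Sqle at -0.11, Lss at -0.25, Cyp51 at -0.10, Tm7sf2 at -0.34 and Dhcr7 at -0.35, and Fdft1, Nsdhl, Hsd17b7 and Stard4 lay within 0.02 of 0. A dim second probe of Fdft1 was at -0.81 (adjusted p = 0.0160), so that the mean of its probes was called lower (-0.40, 0.0432). Srebf1, Srebf2 and Insig2 were at 0.00, -0.06 and -0.29, and Fasn, Scd1, Scd2, Elovl1 and Elovl6 at 0.09, -0.17, 0.02, 0.03 and -0.21. Acat2, Insig1, Acaca, Elovl5 and Fads1 passed in the same direction in both genotypes, 5 of the 9 genes called on arrays labelled fld (55.6%) and 5 of the 6 called in control cells (83.3%). Over all features these shares were 56.7% and 76.4%, close to those of the module.

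**Figure D3:**
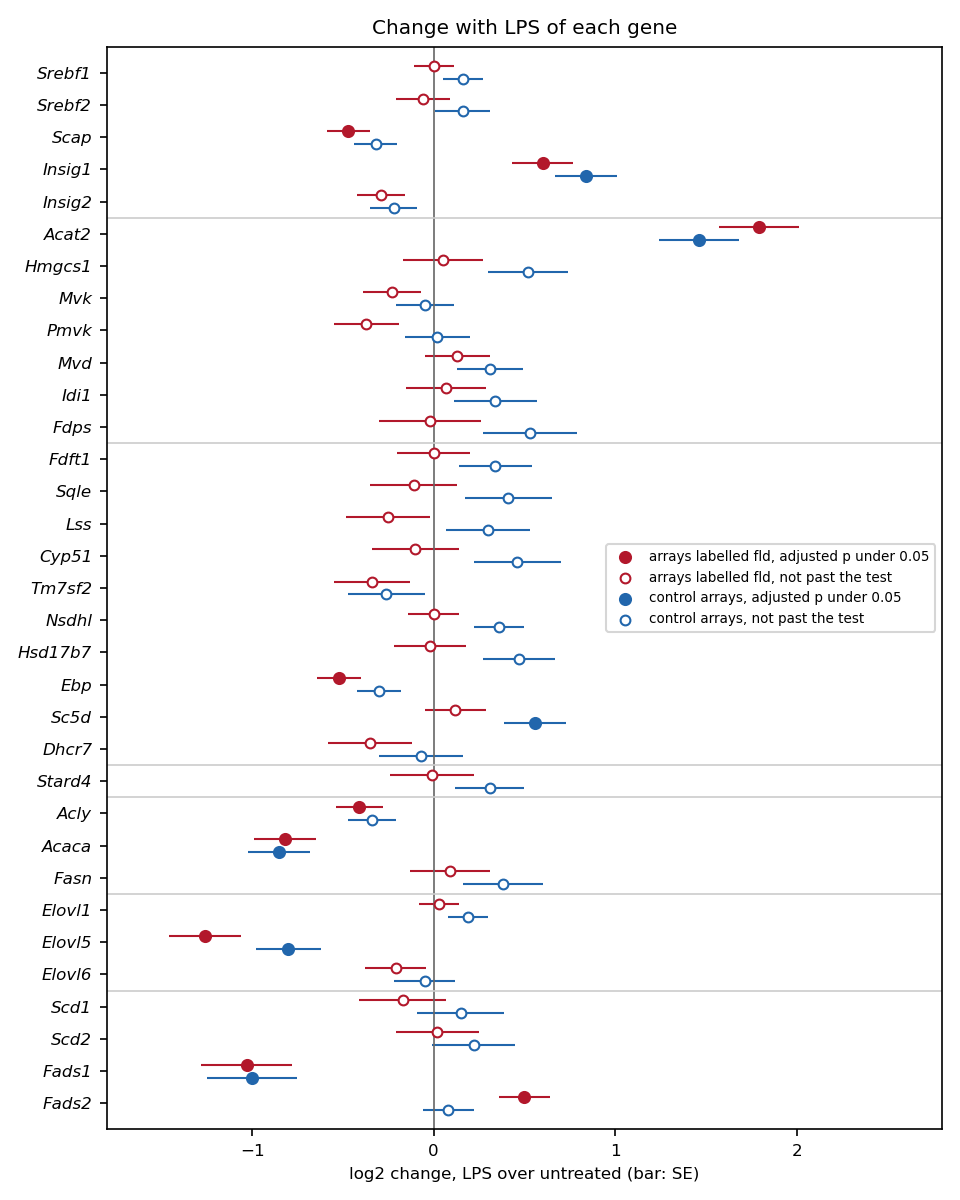
Each row is 1 gene, and points are the log2 change with LPS over untreated in arrays labelled fld (red, upper) and control arrays (blue, lower), with the SE as a bar; filled points passed the test at an adjusted p under 0.05. Most of the mevalonate and sterol enzymes lie near or below 0 on arrays labelled fld and between 0 and 0.6 in control cells.

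Markers of the cell types moved with LPS too. Of the 8 macrophage markers, Csf1r fell by 2.43 and Cd68 by 1.01 on arrays labelled fld, with Adgre1 (-1.49) and Timd4 (-2.34) also called, and Csf1r fell by 1.71 and Cd68 by 0.96 in control cells. Of the 4 B-cell markers Cd79b fell by 0.60 in both genotypes. The summed B-cell level, as multiples of the 75th percentile, was 59.1 to 84.1 on the 3 arrays labelled fld with LPS that had no flag and 90.5 to 127 on untreated arrays labelled fld, and 78.5 to 87.4 on control arrays with LPS and 85.7 to 153 on untreated control arrays. Their part in the results was not tested. In such RNA, fewer cells of a type and less RNA per cell cannot be told apart.

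Means over a branch put the genes of each array together, with a flagged value replaced by the mean of its gene in that group. The sterol mean over 18 genes was 1.45, 1.96, 1.76 and 1.65 on arrays labelled fld with LPS, against 1.81, 1.41, 1.80 and 1.84 on untreated arrays labelled fld. It was 1.59, 1.76, 2.32 and 1.74 on control arrays with LPS, against 1.51, 1.25, 1.75 and 1.63 on untreated control arrays. The groups overlapped in both genotypes. The difference with LPS was -0.01 on arrays labelled fld, and 0.05 without both arrays of replicate 4. It was 0.32 in control cells, and 0.16 without control LPS replicate 3.

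The fatty acid mean over 10 genes was 1.08, 1.33, 1.24 and 1.31 on arrays labelled fld with LPS, against 1.64, 1.57, 1.41 and 1.64 on untreated arrays labelled fld. Here the LPS arrays all lay below the untreated arrays, with a difference of -0.33, and -0.32 without both arrays of replicate 4. It was 1.13, 1.27, 1.45 and 1.15 on control arrays with LPS, against 1.31, 1.28, 1.69 and 1.53 on untreated control arrays. Those groups overlapped, with a difference of -0.20, and -0.12 without control untreated replicate 3.

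**Figure D4:**
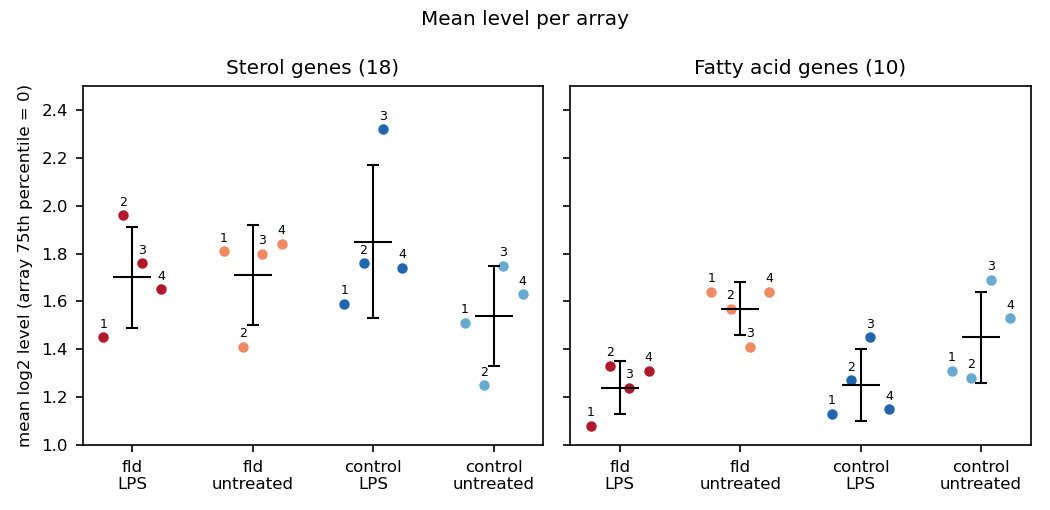
Points are the mean log2 level over 18 sterol genes and over 10 fatty acid genes on each array, numbered by replicate, in the order fld with LPS, fld untreated, control with LPS and control untreated, and bars are the mean and SD of the group (n = 4). The fatty acid means of the arrays labelled fld separate by treatment, at 1.08 to 1.33 with LPS and 1.41 to 1.64 untreated, while the sterol means overlap.

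Between genotypes few genes of the module passed the test. Without LPS none of the 33 genes passed by limma, against 5.12% of all features. Of the 33, 2 had an unadjusted p under 0.05, against 18.5% of all features. Calls were rarer in the third and brightest quartiles by mean level, where 10 and 18 of the 33 genes lie. There 0.71% and 0.687% of features were called higher, 0.298% and 0.0458% lower, and the median changes were 0.0 and 0.05. The changes of the 33 genes ran from -0.11 to 0.48, with 28 of 33 above 0 and 5 below, where 39.4% of all features lay below 0. The median was 0.14, against 0.06 over all features. Without control untreated replicate 2, 12 genes lay below 0 and the median was 0.06, that of all features, and without both arrays labelled fld replicate 4, 7 lay below 0 and the median was 0.10. The highest was Fads2, at -1.65, -1.84, -1.89 and -1.76 on arrays labelled fld, against -2.19, -2.42, -2.20 and -2.24 in control cells, with no overlap (0.48, SE 0.14, limma adjusted p = 0.0609). Of all features, 13.3% were likewise higher on arrays labelled fld without overlap. Fads2 lies in the second quartile by mean level, where 4.7% of features were called higher in this comparison. Fads2 passed without both arrays labelled fld replicate 4 (0.47, adjusted p = 0.0345), without fld LPS replicate 4 alone (0.0124), without control LPS replicate 3 (0.0485) and when only the compared groups entered the fit (0.0206). The next highest, Hsd17b7 (0.44, SE 0.20, adjusted p = 0.264) and Sc5d (0.36, SE 0.17, 0.274), overlapped between genotypes.

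With LPS, Fads2 was the sole gene of the module to pass, 3.03% of the 33 genes against 17.0% of all features (16.1% higher and 0.916% lower). It was -1.49, -1.30, -1.5 and -0.87 on arrays labelled fld, against -2.02, -2.03, -2.41 and -2.26 in control cells. Every array labelled fld lay above every control array, with fld replicate 4 the highest, and the groups of 20.3% of all features did not overlap either. The difference was 0.89 (SE 0.14, 1.85-fold, limma adjusted p = 0.000542). Without both arrays of replicate 4 the difference was 0.75 (adjusted p = 0.00151). The Fads2 probe is dim, in the second quartile of all features by mean level, where 20.8% of features were called higher in this comparison, against 39.1% in the dimmest quartile and 0.596% in the brightest. Of the 33 genes, 0, 5, 10 and 18 lie in the quartiles from dimmest to brightest. In the third quartile 3.76% of features were called higher and 1.1% lower, and 0.527% were called lower in the brightest. The 17.0% is therefore not the share at the brightness of most of the module. Of 4 T-cell markers Cd3e was called higher (1.41) and Cd3d (0.65), Cd2 (-0.07) and Cd3g (-0.23) did not pass. Of the 5 mesothelial and fibroblast markers tested Col1a1 was called higher (2.45), and Msln, Krt19, Col3a1 and Dcn, at 0.03 to 0.31, did not pass. Their part in the Fads2 difference was not tested.

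Dimmer probes of Acaca were also higher on arrays labelled fld with LPS. In a fit over all probes they were at 1.14 (adjusted p = 0.000555), 1.09 (0.00554) and 0.54 (0.254), beside 0.05 for the brightest probe (0.898), and the mean of its probes was called higher (0.70, 0.00678). Elovl5 did not overlap between genotypes with LPS, at 1.84 to 1.99 on arrays labelled fld and 2.01 to 2.29 in control cells, but did not pass (-0.21, SE 0.18, adjusted p = 0.534). Of the sterol genes 17 of 18 lay below 0, against 46.1% of all features, with a median of -0.19, against 0.03, and the mean over the branch differed by -0.15. Without both arrays labelled fld replicate 4 these values were 15 of 18, -0.16 and -0.13. Without control LPS replicate 3 they were 11 of 18, -0.02 and 0.01, and without fld LPS replicate 1 the first 2 were 13 of 18 and -0.08. By brightness, the median of all features was 0.61 in the dimmest quartile, then 0.1, -0.05 and -0.04 in the brightest. On the deposited table, 17 members were called lower and 1 higher, where the median of all features was -0.37, against 0.03 in the present scaling. The share of all features called on that table is not given.

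The difference between the LPS responses, fld minus control, was called for none of the 33 genes and for none of the 17466 features by limma (0.0%), while 9.33% of all features and none of the 33 genes had an unadjusted p under 0.05. The lowest adjusted p in the module was 0.539, for Fads2 (0.41, SE 0.20). For the sterol genes, 17 of 18 differences lay below 0, Acat2 being the exception at 0.33 (SE 0.31), against 49.5% of all features. The lowest were Cyp51 at -0.56 (SE 0.34), Fdps at -0.55 (SE 0.38), Lss at -0.55 (SE 0.32) and Sqle at -0.53 (SE 0.34). The median was -0.35, against 0.00 over all features, and -0.24 without control LPS replicate 3, when 16 of 18 lay below 0. Without both arrays labelled fld replicate 4 the median was -0.30 and again 16 of 18 lay below 0. The median of all features depended on brightness, at 0.26 in the dimmest quartile, then 0.09, -0.03 and -0.1 in the brightest. Of the 33 genes, 0, 5, 10 and 18 lie in these quartiles, so 0.00 is not the median at their brightness. For Sc5d, called in control cells alone, the difference was -0.44 (SE 0.24, adjusted p = 0.607), so its response was not shown to differ between genotypes. The differences of Elovl5 (-0.46, SE 0.27), Ebp (-0.21, SE 0.17), Scap (-0.15, SE 0.17) and Acly (-0.07, SE 0.18) did not pass either.

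Within the groups, the sterol genes varied together from array to array. Over the deviations of 16 arrays from their group means, all 153 pairs of the 18 sterol genes had a correlation above 0, with a median r of 0.74 and a range of 0.07 to 0.97. The median r was 0.18 over the 45 pairs of fatty acid genes and 0.24 over the 10 pairs of regulators. Over all pairs of features without a flagged value it was 0.00, with a 5th to 95th percentile of -0.60 to 0.64. These correlations are a description, since genes of an array share its RNA, hybridisation and scaling.

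The shared variation can be read off single arrays. Control LPS replicate 3 was the highest of its group for 18 of 18 sterol genes, against 30.5% of all features, and control LPS replicate 1 the lowest for 16 of 18, against 23.3%. Untreated replicate 2 was the lowest of its group for 16 of the 17 sterol genes without a flag on arrays labelled fld, against 29.4% of features, and for 14 of 16 in control cells, against 23.9%. With LPS on arrays labelled fld, replicate 2 was highest for 10 of 16, against 14.4%, and replicate 1 lowest for 10 of 16, against 25.0%. Hmgcs1 shows the size of the spread. It was 3.74, 4.63, 4.08 and 4.33 on arrays labelled fld with LPS, against 4.31, 3.81, 4.32 and 4.17 on untreated ones. It was 4.19, 4.28, 4.82 and 4.21 on control arrays with LPS, against 3.85, 3.30, 4.24 and 4.01 on untreated ones. The distance between replicates is as large as the change with LPS of 0.52 in control cells.

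**Figure D5:**
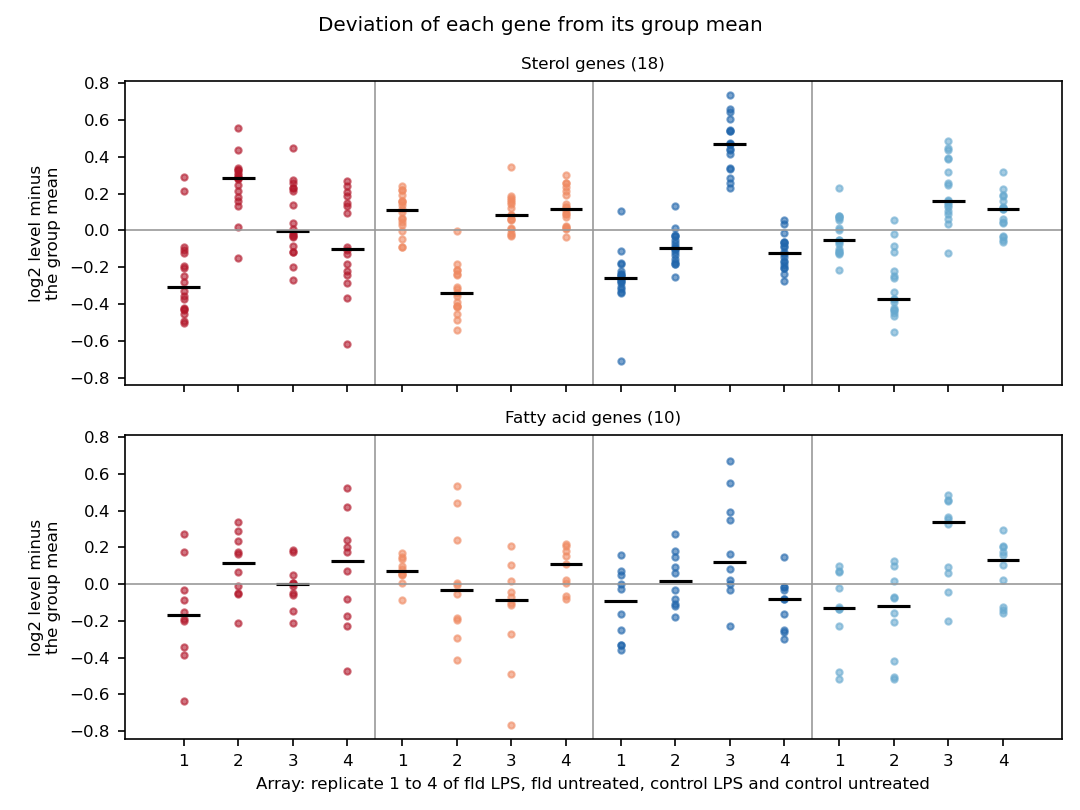
Points are the deviation of each gene's log2 level from its group mean on each of the 16 arrays, in the order fld with LPS, fld untreated, control with LPS and control untreated, and black lines are the median over genes. The 18 sterol genes shift as a block from array to array, up on control LPS replicate 3 and down on untreated replicate 2 of both genotypes, while the 10 fatty acid genes spread around 0.

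Some fatty acid genes and regulators followed this shared pattern and others did not. The correlation with the mean of the sterol genes was 0.97 for Scd2, 0.89 for Fasn, 0.82 for Srebf2, 0.80 for Insig1, 0.76 for Scd1, 0.70 for Acly and 0.67 for Scap. It was 0.32 for Srebf1, 0.34 for Elovl6, 0.09 for Elovl5, 0.00 for Fads1, -0.09 for Acaca, -0.10 for Fads2, -0.36 for Insig2 and -0.39 for Elovl1. Within the sterol branch Mvd (0.34) and Acat2 (0.47) were the least like the others, and Dhcr7, Idi1 (both 0.95, Idi1 over 15 arrays) and Fdps (0.94 over 15 arrays) the most. Elovl5, Fads1 and Acaca, the genes that fell with LPS in both genotypes, are thus not those that followed the sterol genes across replicates. Of pathway genes outside the module, Msmo1, a late sterol enzyme, had a correlation of 0.87 over 15 arrays.

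Of 28 other genes of these pathways 27 were measured. On arrays labelled fld with LPS, 1 rose and 6 fell. In control cells with LPS, 2 rose and 5 fell, 25.9% of the 27 in each, against 39.6% and 29.4% of all features. Between genotypes none of the 27 passed by limma with or without LPS, against 17.0% and 5.12% of all features. An unadjusted p under 0.05 was found for 4 and 3 of the 27, against 26.6% and 18.5% of all features. From the dimmest to the brightest quartile, 39.1%, 20.8%, 3.76% and 0.596% of features were called higher between genotypes with LPS. The shares of all features may therefore not be those at the brightness of the 27 genes, whose quartiles are not given. Their median change with LPS was -0.14 on arrays labelled fld and -0.01 in control cells, against 0.06 and 0.03 over all features. Ch25h, which makes 25-hydroxycholesterol, an oxysterol that blocks SREBP processing, was 4.91, 4.96, 5.25 and 6.32 on arrays labelled fld with LPS, against 2.32, 1.54, 1.76 and 2.78 untreated (3.26, SE 0.61, adjusted p = 0.000873). It was 4.21, 5.09, 5.85 and 5.97 in control cells with LPS, against 2.16, 1.0, -1.42 and 0.86 untreated (4.63, SE 0.61, adjusted p = 5.37e-05).

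Among the genes that fell, Acss2, the cytosolic acetyl-CoA synthetase, fell by 1.22 (SE 0.27, limma adjusted p = 0.00263) on arrays labelled fld and by 2.01 (SE 0.27, 5.78e-05) in control cells. Nr1h3, the receptor LXR alpha, fell by 1.28 (SE 0.29, 0.00302) and by 1.45 (SE 0.29, 0.00138). Mlxipl, the carbohydrate-responsive factor ChREBP, fell by 0.53 (SE 0.18, 0.0268) and by 0.75 (SE 0.18, 0.00454), and Acacb, the second acetyl-CoA carboxylase, by 0.81 (SE 0.19, 0.00408) and by 0.58 (SE 0.19, 0.0334). Tecr, the reductase of the elongation cycle, fell by 0.30 (SE 0.11, 0.0414) and by 0.49 (SE 0.11, 0.00323). The LPS and untreated groups overlapped for Mlxipl and Tecr on arrays labelled fld and for Acacb in control cells. A pair of further calls lies outside the 6 genes with the largest changes, and was named after the values were seen: Rnf139 on arrays labelled fld (-0.46) and Ggps1 in control cells (0.39).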

How the data were processed

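RNA of 16 samples was hybridised to single-colour Agilent arrays (design 014868), 1 array per sample and 4 per group, grouped by the sample titles. Per the file headers, the authors' scans were read with Agilent Feature Extraction 9.5.1.1, and the processed intensity of each spot is background-subtracted and detrended, with no scaling between arrays. The authors' deposited value table holds a ratio, each processed intensity over the median of its array, and served as an alternative.

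From the intensities, log2 values were taken minus the 75th percentile of the 43379 non-control spots of each array. Values with an outlier flag (1.341%) were left out and repeated spots averaged. A probe was kept if well above background on all 4 arrays of a group (25534 of 41174), and the brightest kept probe stood for a gene, which gave 17466 features. Names came from the accession, symbol or synonym in RefSeq's gene table (GRCm38.p6). The array files' own probe coordinates carry no stated genome build and are not printed. Levels were fitted with limma 3.58.1 in R 4.3.3 (lmFit and eBayes, 1 mean per group), with p-values adjusted by Benjamini-Hochberg over all features of a comparison and called under 0.05. The fit was tested on simulated data. All 33 members were named, and of the other pathway genes the 6 with the largest change among those called without overlap between groups in at least 1 comparison. The members and lists were chosen with earlier results of these data known. The number of arrays limits the precision. Alternatives were quantile normalization, normexp background correction, no filter, the mean of a gene's kept probes, a fit of only the compared groups, the deposited table, a replicate block and leaving out arrays.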

Additional observations from a re-analysis of the deposited data

Results flagged for a closer look

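Among 134 groups of 4 values, a single array stood far from the other 3 in 9, where chance alone flags about 1 group in 20. On arrays labelled fld with LPS, Mvd was 1.47 on replicate 4, against 2.22 to 2.36 on the others. On untreated arrays labelled fld, replicate 2 was low for Idi1 (2.91, others 3.41 to 3.51), Fdft1 (1.28, others 1.80 to 1.89), Dhcr7 (1.72, others 2.14 to 2.22) and the mean of the sterol branch (1.41, others 1.80 to 1.84). On control arrays with LPS, replicate 3 was high for Hmgcs1 (4.82, others 4.19 to 4.28) and Mvd (2.54, others 2.07 to 2.10), and replicate 4 was low for Acaca (-0.75, others -0.43 to -0.41). On untreated control arrays, replicate 2 was low for Fdft1 (1.30, others 1.62 to 1.68). These are log2 levels. Their cause was not tested.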

How the results depend on the processing

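With LPS, the count of called genes on arrays labelled fld was 9 in every leave-out of a single array, though without fld untreated replicate 4 Acly lost its call (-0.34, adjusted p = 0.0582) and Insig2 gained one (-0.37, 0.0453). In control cells the count was 5 to 8. Between genotypes without LPS, 0 to 1 were called when single arrays were left out. The count was 1 without both arrays labelled fld replicate 4 and when only the compared groups entered the fit. With LPS, 18 were called between genotypes on the deposited table (1 higher, 17 lower), 2 with quantile normalization and 2 with the mean of kept probes. The sterol mean then differed by -0.55 on the deposited table. The fatty acid mean on that table differed by -0.56 with LPS on arrays labelled fld, -0.07 between untreated genotypes, -0.41 between genotypes with LPS and -0.34 between the LPS responses. Its scaling moved the median of all features to -0.37 between genotypes with LPS and to -0.12 without. Leaving out the filter moved that median to 0.28 with LPS and 0.11 without. The LPS change of Fdft1 on arrays labelled fld was -0.40 with the mean of kept probes and 0.00 with its brightest probe, since a dimmer probe was lower. Over 43 gene results, leaving out single arrays gave the same call in 676 fits, a gained one in 9 and a lost one in 3, and all 43 kept their call with normexp and without the filter. With the replicate block, 8 genes were called with LPS in control cells, 11 on arrays labelled fld, 0 and 1 between genotypes and 0 for the difference. The share of all features called under each alternative is not given, here or above, so these counts cannot be set against the array. Samples of the same number correlated at 0.088 to 0.262 in control cells and at -0.095 to 0.206 on arrays labelled fld. Samples of unlike numbers correlated at -0.262 to 0.21 in control cells and at -0.412 to 0.372 on arrays labelled fld. These ranges overlap and do not settle whether the numbers pair samples, and the main fit did not pair them. Both arrays labelled fld replicate 4 were high in the mean of the 3 dimmer Lpin1 probes, at -3.03 with LPS and -1.62 untreated. The other arrays labelled fld were at -6.72 to -5.46. Whether these 2 arrays share a mouse was not tested. The 16 arrays and the dimness of some probes limit small changes.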
